A study of Homo sapiens with 6 samples.

Results

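Fatty acid synthesis and desaturation were followed through 10 genes in BT20, an established human breast cancer cell line: the regulator SREBF1, the enzymes ACACA, ACLY, ACSS2, FASN and SCD, the desaturases FADS1 and FADS2, and the elongases ELOVL5 and ELOVL6. The genes were taken by name from a table of 56478 gene symbols. All 10 were found, 9 of them with counts in every library, and FADS1 was listed at 0 throughout. The tested libraries carry shCK5-22, a short hairpin RNA against cytokeratin 5 (n = 3), and the others carry the hairpin shControl (n = 3), each in a pLK0 vector. BT20 is labelled triple negative, and both sets of cells grew in medium with fetal bovine serum and had no other treatment. The labels give 1 hairpin against cytokeratin 5, so effects of the knockdown and effects particular to that hairpin cannot be told apart. Whether the replicates came from separate cultures is not stated, and the spread behind the p-values may be technical.

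Cells build fatty acids in the cytosol from acetyl-CoA. ATP citrate lyase (ACLY) makes acetyl-CoA from citrate and the synthetase ACSS2 makes it from acetate, acetyl-CoA carboxylase (ACACA) turns it into malonyl-CoA, and fatty acid synthase (FASN) assembles palmitate. Desaturases then add double bonds and elongases add carbons. SREBF1 encodes the transcription factor SREBP-1, which is freed from a membrane precursor when lipid supply is low and drives most of these genes, and many tumour cells keep the pathway active.

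Libraries held 47703937 to 65541734 counts. KRT5, the targeted gene, had 21.05, 22.7 and 24.09 CPM (counts scaled by the TMM-adjusted size of the library) in shCK5-22 libraries, against 230.7, 246.6 and 244.3 CPM in shControl libraries, and each library matched its label. All 5 epithelial markers examined (EPCAM, KRT8, KRT18, KRT19 and CDH1) were above 1 CPM, with sums of 7200 to 7720 CPM in shCK5-22 and 7830 to 8270 CPM in shControl. Of these KRT19 averaged 1158 CPM in shCK5-22 and 1792 CPM in shControl cells (log2 fold change -0.63, adjusted p = 5.45e-08) and CDH1 429 and 553 CPM (-0.37, adjusted p = 1.48e-09), while EPCAM, KRT8 and KRT18 did not pass the test. Of the receptors that define triple negative tumours, PGR averaged 0.0355 and 0.0591 CPM, ESR1 11.5 and 14.5 CPM and ERBB2 83.8 and 120.2 CPM in shCK5-22 and shControl cells. None of 6 adipocyte or 5 leukocyte markers reached 1 CPM, and 3 of 7 fibroblast and endothelial markers did (COL1A1, PECAM1 and CDH5), with PDGFRA at 0 and sums of 46.1 to 58.6 CPM in shCK5-22 and 55.5 to 63.8 CPM in shControl. The adipocyte marker FABP4, also at 0, has 100% of its exon bases inside another gene's span, and PDGFRA has 69.4%. Whether these 0 values mean absence was not tested. COL1A1 fell (log2 fold change -0.25, adjusted p = 0.00055), as did PECAM1 (-1.20, adjusted p = 0.0429), and LUM, at 0.373 CPM in shCK5-22 and 0.101 CPM in shControl cells, rose (1.85, adjusted p = 0.00745). The part of these markers in the results was not tested. shCK5-22 replicate 1 stood apart from the other 2 knockdown libraries, with a chi-square per degree of freedom of 33.7 and 19.8 against 5.08 between those 2 and 3.47 to 4.88 among shControl libraries.

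The upstream 250 bases of 5 genes are shown because these genes span the range of responses described next: SREBF1, SCD and FADS2 fell most, while ACLY and ELOVL5 did not pass the test. The sequences are from RefSeq on GRCh38.p14, run 5′ to 3′ on the strand of the gene and end at the base before the RefSeq start, at the second of the listed starts for FADS2 and the first for ACLY. Capitals mark matches on either strand to the NF-Y box CCAAT, the GC box GGGCGG and the E-box CACGTG.
SREBF1, chr17:17836987-17837236, minus strand: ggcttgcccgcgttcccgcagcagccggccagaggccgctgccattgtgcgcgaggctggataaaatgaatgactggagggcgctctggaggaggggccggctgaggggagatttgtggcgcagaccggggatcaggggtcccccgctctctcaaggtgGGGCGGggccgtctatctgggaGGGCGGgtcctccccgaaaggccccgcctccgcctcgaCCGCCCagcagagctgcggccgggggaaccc
SCD, chr10:100346983-100347232, plus strand: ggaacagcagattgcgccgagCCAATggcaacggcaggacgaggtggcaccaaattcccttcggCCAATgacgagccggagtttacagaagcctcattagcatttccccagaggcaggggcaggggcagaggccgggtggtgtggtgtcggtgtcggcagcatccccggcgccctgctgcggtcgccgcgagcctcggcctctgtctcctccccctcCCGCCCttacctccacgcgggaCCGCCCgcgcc
FADS2, chr11:61816154-61816403, plus strand: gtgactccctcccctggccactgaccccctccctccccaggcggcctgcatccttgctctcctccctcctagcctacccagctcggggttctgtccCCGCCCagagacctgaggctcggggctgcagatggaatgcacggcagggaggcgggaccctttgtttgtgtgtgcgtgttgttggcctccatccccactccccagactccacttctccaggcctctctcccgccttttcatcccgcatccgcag
ACLY, chr17:41919023-41919272, minus strand: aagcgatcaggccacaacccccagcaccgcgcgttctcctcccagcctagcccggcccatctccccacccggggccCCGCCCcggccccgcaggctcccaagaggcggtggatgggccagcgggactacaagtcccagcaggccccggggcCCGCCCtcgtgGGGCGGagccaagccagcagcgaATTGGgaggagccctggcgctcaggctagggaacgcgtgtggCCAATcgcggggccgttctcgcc
ELOVL5, chr6:53348951-53349200, minus strand: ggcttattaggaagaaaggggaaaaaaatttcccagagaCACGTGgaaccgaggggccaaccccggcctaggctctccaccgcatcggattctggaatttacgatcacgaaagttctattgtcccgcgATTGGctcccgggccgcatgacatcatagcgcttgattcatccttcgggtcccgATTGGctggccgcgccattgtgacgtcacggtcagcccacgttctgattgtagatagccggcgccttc

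RefSeq promoters were matched for 9 of the 10 genes, 14 starts in all. FASN had no matched promoter and was not searched. The windows of the listed ACLY starts overlap, so boxes they share are counted at both. The GC box was found upstream of 11 of these 14 starts, against 42.6% of 35116 promoters of the same length, and the NF-Y box upstream of 7, against 32%. The E-box was found at ELOVL5 alone, against 6.34% of all promoters. The sterol regulatory element TCACNCCAC, searched on both strands, was at 0 of the 14 starts and at 0.883% of all promoters; other spellings of the element were not searched. SCD has both NF-Y boxes far upstream, starting 229 and 186 bases before the start, and its GC boxes close to it. The ACLY and ELOVL5 sequences shown also hold 2 NF-Y boxes each. That of SREBF1 holds GC boxes only and that of FADS2 only 1 GC box. The other listed FADS2 start, not shown, had no match to any of the motifs.

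The pathway was lower in shCK5-22 cells at most steps, and unevenly. SREBF1, ACSS2, ACACA, FASN, SCD, FADS2 and ELOVL6 fell, by 14.7% to 47.7%, and ACLY and ELOVL5 did not pass the test. Of the 9 genes tested 7 were lower and 0 higher, where 34.2% of all 18008 genes tested passed in either direction, 16.8% lower and 17.4% higher. In these bulk libraries, fewer cells using a gene and less of its RNA per cell cannot be told apart. The median log2 fold change of the 9 was -0.49, and that of all genes tested was -0.0057. A fall of more than 1.2-fold passed its own test for 6 of the 9, all that fell but ELOVL6, against 5.31% of all genes, and a rise of that size for 0, against 3.81%. Each of the 9 averaged over 50 CPM, and among the 4198 genes at or above that level, a background chosen after the values were seen, 21.4% were lower, 32.6% were higher and 4.74% were lower by more than 1.2-fold.

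SREBF1 (chromosome 17, 17810399 to 17837002, minus strand, GRCh38) had 90.06, 84.43 and 90.89 CPM in shCK5-22 libraries, against 151.3, 150 and 148.1 CPM in shControl libraries. The knockdown libraries all lay well below the controls and the groups did not overlap, as was the case for 45.1% of all genes tested. SREBF1 mRNA was 1.69-fold lower (log2 fold change -0.76, SE 0.0345, adjusted p = 3.42e-13). Of its annotated exon bases, 6.9% lie within the span of another gene, and 5.42% of its 50-base windows also occur in transcripts of the neighbour RAI1.

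Of the enzymes that make acetyl-CoA, ACSS2 fell and ACLY did not pass the test. ACSS2 (chromosome 20, 34872146 to 34927962), which uses acetate, had 69.5, 62.8 and 68.16 CPM in shCK5-22 libraries, against 93.06, 95.47 and 96.69 CPM in shControl libraries. It was 1.42-fold lower, with no overlap (log2 fold change -0.51, SE 0.04, adjusted p = 2.13e-09). ACLY (chromosome 17, 41866908 to 41930542), which uses citrate, had 480.4, 488.1 and 478.5 CPM in shCK5-22 libraries, against 463.7, 478 and 460.4 CPM in shControl libraries. The knockdown libraries sat slightly above the controls without overlap, but the difference did not pass the test (log2 fold change 0.045, SE 0.0275, adjusted p = 0.227).

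The carboxylase and the synthase both fell. ACACA (chromosome 17, 37084988 to 37406818), which makes malonyl-CoA, had 100.1, 102.9 and 106.8 CPM in shCK5-22 libraries, against 145, 141.5 and 141.8 CPM in shControl libraries. FASN (chromosome 17, 82078333 to 82098332), which builds palmitate from it, had 811, 743.6 and 786 CPM in shCK5-22 libraries, against 1097, 1087 and 1092 CPM in shControl libraries. In neither gene did the groups overlap. ACACA fell by 27.7% (log2 fold change -0.47, SE 0.0333, adjusted p = 4.43e-10) and FASN fell by 28.6% (log2 fold change -0.49, SE 0.0306, adjusted p = 6.62e-11).

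The desaturases showed the deepest falls of the pathway. SCD (chromosome 10, 100347124 to 100364834), which places the first double bond in stearate and palmitate, had 550.1, 510.5 and 568.8 CPM in shCK5-22 libraries, against 1006, 1045 and 994.5 CPM in shControl libraries. FADS2 (chromosome 11, 61792980 to 61867354), the delta-6 desaturase of polyunsaturated fatty acids, had 55.5, 46.27 and 52.25 CPM in shCK5-22 libraries, against 101.3, 97.74 and 95.65 CPM in shControl libraries. Both genes were without overlap and near the same fold. SCD was 1.87-fold lower (log2 fold change -0.90, SE 0.0352, adjusted p = 4.07e-13) and FADS2 1.91-fold lower (log2 fold change -0.93, SE 0.0535, adjusted p = 2.25e-09). Only 3.18% of all genes tested had a more negative log2 fold change than SCD.

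FADS1 (chromosome 11, 61799625 to 61829318, minus strand), the delta-5 desaturase that acts after FADS2, had 0 counts in each of the 6 libraries, and this 0 cannot be read as absence. All of its annotated exon bases lie within the span of FADS2, which runs on the opposite strand, and the nearest RefSeq starts of both genes are 599 bases apart. Of the 1693 protein-coding genes whose exons lie wholly inside the span of another gene, 90.8% were listed at 0 in all libraries, against 12.1% of the 9298 with no such overlap. FEN1, a nuclease of DNA replication with 92.9% of its exon bases inside its neighbours' spans, had 4 to 14 counts per library. FADS2 has 16.2% of its exon bases inside the spans of FADS1, FEN1 and MIR1908, and its own span holds all FADS1 exons. Its count is therefore uncertain, and that share does not bound the error. Whether reads of FADS1 were dropped or counted for FADS2 was not tested. Of the 7903 protein-coding genes with such partial overlap, 5.61% were listed at 0.

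Of the elongases, ELOVL6 fell and ELOVL5 did not pass the test. ELOVL6 (chromosome 4, 110045846 to 110199199), which lengthens palmitate to stearate, had 67.06, 63.94 and 69.32 CPM in shCK5-22 libraries, against 77.99, 78.87 and 77.92 CPM in shControl libraries. It was 1.17-fold lower without overlap (log2 fold change -0.23, SE 0.0383, adjusted p = 6.98e-05), and its fall did not pass the test against 1.2-fold. ELOVL5 (chromosome 6, 53267398 to 53349179), which lengthens polyunsaturated fatty acids, had 197.4, 195 and 194.5 CPM in shCK5-22 libraries, against 194.8, 194.2 and 195.6 CPM in shControl libraries. Its groups overlapped, and no difference was detected (log2 fold change 0.0058, SE 0.0281, adjusted p = 0.904).

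**Figure D1:**
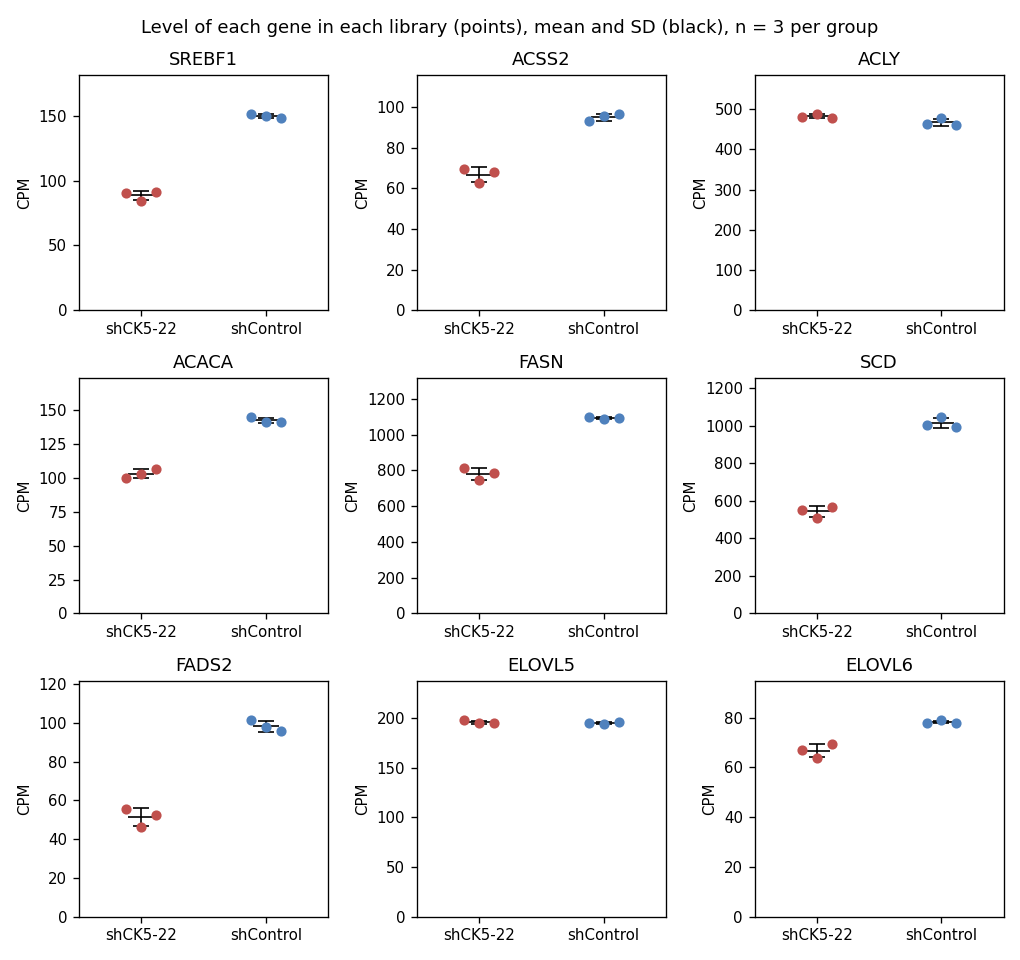
Level in CPM (vertical axes, from 0) of the 9 counted genes in each of the 3 shCK5-22 libraries (red, left) and 3 shControl libraries (blue, right), with mean and SD in black. SREBF1, ACSS2, ACACA, FASN, SCD, FADS2 and ELOVL6 were lower in every shCK5-22 library than in any shControl library, ELOVL5 overlapped, and ACLY was between 478.5 and 488.1 CPM against 460.4 to 478 CPM.

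The average over the 9 genes set the groups apart, but single genes did not all follow it. Averaged over the 9 genes after centring each on its own mean log2 CPM, the level was -0.21, -0.29 and -0.21 in shCK5-22 replicates 1, 2 and 3, against 0.24, 0.24 and 0.23 in the shControl libraries. Replicate 2 was the lowest knockdown library for SREBF1, ACSS2, FASN, SCD, FADS2 and ELOVL6. For ACLY it was the highest, at 488.1 CPM, and for ACACA replicate 1 was the lowest, at 100.1 CPM. Without shCK5-22 replicate 1, the library that stood apart, the 7 genes that fell still fell, with log2 fold changes of -0.23 for ELOVL6 to -1.0 for FADS2 (-0.997). The genes whose centred profile lay closest to this average, among 10450 others at 5 CPM or more, were FUT3, SYNE4, ST14 and TRIM26, with root mean square distances of 0.0076 to 0.0192 in log2 units over the 6 libraries.

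**Figure D2:**
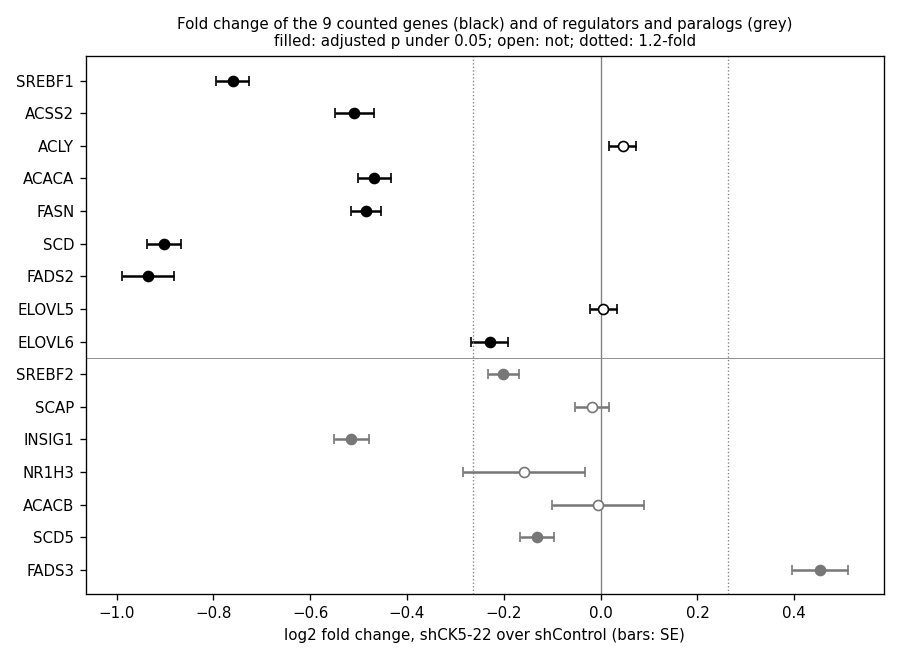
Log2 fold change of shCK5-22 over shControl (horizontal axis, bars are SE) for the 9 counted genes in black and for regulators and paralogs in grey, with filled points past an adjusted p of 0.05 and dotted lines at 1.2-fold. Of the genes drawn, FADS2, SCD and SREBF1 lie farthest to the left, at -0.93, -0.90 and -0.76, and FADS3 lies to the right at 0.45. The regulator MLXIPL, at -1.89 with 2 to 20 counts per library, is not drawn.

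Ratios of counts within a library, which do not depend on scaling between libraries, set the steps against each other. The SCD/FASN ratio was 0.678, 0.687 and 0.724 in shCK5-22 libraries, against 0.917, 0.962 and 0.91 in shControl libraries. The ACSS2/ACLY ratio was 0.145, 0.129 and 0.142 in shCK5-22 libraries, against 0.201, 0.2 and 0.21 in shControl libraries. The ELOVL5/ELOVL6 ratio was 2.94, 3.05 and 2.81 in shCK5-22 libraries, against 2.5, 2.46 and 2.51 in shControl libraries. None of these 3 ratios overlapped between the groups, the first pair being lower and the last higher in the knockdown.

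The SCD/SREBF1 ratio, of an enzyme to its regulator, was 6.11, 6.05 and 6.26 in shCK5-22 libraries, against 6.65, 6.97 and 6.71 in shControl libraries. The FASN/ACACA ratio was 8.1, 7.23 and 7.36 in shCK5-22 libraries, against 7.57, 7.68 and 7.7 in shControl libraries, so it overlapped. The log2 differences, shCK5-22 minus shControl, were -0.42 for SCD/FASN, -0.56 for ACSS2/ACLY, 0.24 for ELOVL5/ELOVL6, -0.14 for SCD/SREBF1 and -0.018 for FASN/ACACA. In the two-sided exact permutation test, p was 0.1 for each of the 4 ratios without overlap, the smallest value 3 against 3 libraries allow, and 0.9 for FASN/ACACA. Adjusted by Benjamini-Hochberg over the 5 ratios these exact p-values were 0.125 and 0.9, so the design could not carry any ratio past 0.05. A FADS1/FADS2 ratio could not be formed.

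**Figure D3:**
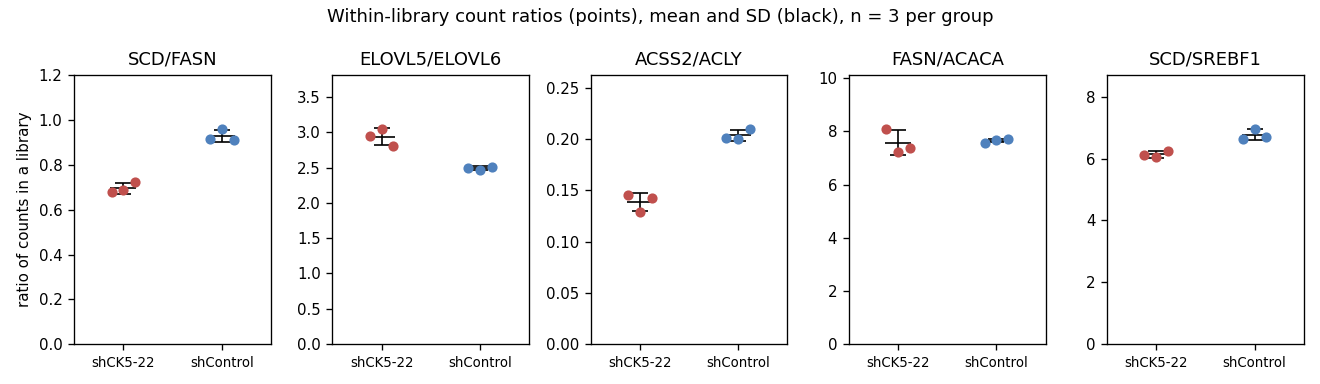
Ratio of the counts of a pair of genes in the same library (vertical axes, from 0) in 3 shCK5-22 libraries (red, left) and 3 shControl libraries (blue, right), with mean and SD in black. SCD/FASN, ACSS2/ACLY and SCD/SREBF1 were lower and ELOVL5/ELOVL6 higher in each shCK5-22 library, and FASN/ACACA overlapped.

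Per length, the pathway was headed by SCD, FASN and ACLY. On the scale of CPM per kilobase of merged annotated exons, SCD stood at 101 ± 5.55 in shCK5-22 and 189 ± 4.96 in shControl cells (SD, n = 3 each). FASN stood at 83.3 ± 3.64 and 117 ± 0.554, ACLY at 92.5 ± 0.977 and 89.6 ± 1.79, and ELOVL5 at 51.3 ± 0.402 and 51.1 ± 0.193. The other genes were at or below 12.4 in shCK5-22 and 18.7 in shControl cells. ACLY ranked above FASN in shCK5-22 cells and below it in shControl cells, and neither pair of ranges overlapped. Over the longest annotated transcript in place of merged exons, ACLY stood at 111 and 108, above SCD in the knockdown at 101, so the order of these levels depends on the length used. FADS2 had the lowest level on merged exons, at 4.66 ± 0.425 in shCK5-22 and 8.91 ± 0.257 in shControl cells.

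**Figure D4:**
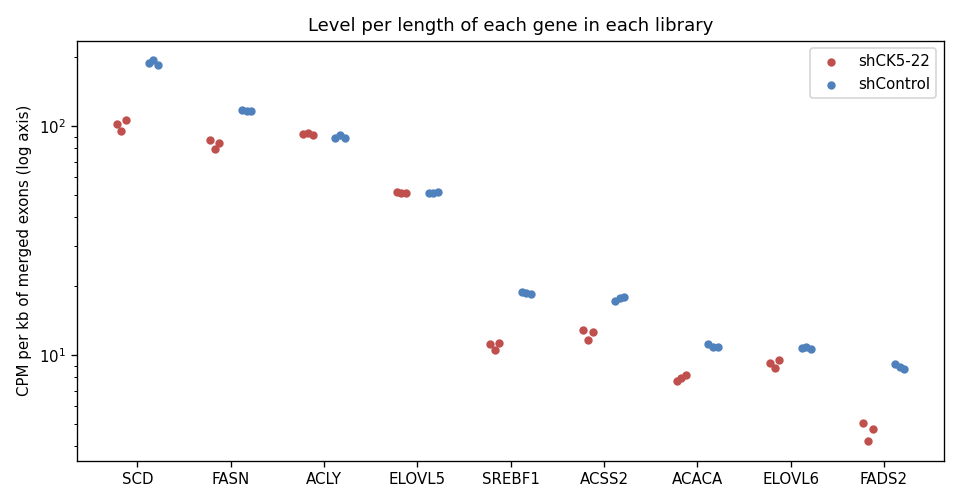
Level per length (vertical log axis, CPM per kilobase of merged exons) of the 9 counted genes in each shCK5-22 (red, left) and shControl (blue, right) library, ordered by the shControl mean. SCD lies highest in both groups, at 101 in shCK5-22 and 189 in shControl, and FADS2 lowest.

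Among 15 tested genes listed for control of lipogenic transcription, 8 (53.3%) were lower and 0 higher, against 16.8% and 17.4% of all genes tested. Their median log2 fold change was -0.16, and 1 of the 8, INSIG1, was lower by more than 1.2-fold. The list is not of transcription factors alone, and MID1IP1, which fell by 0.21, is 1 of the 8. INSIG1, the membrane protein that holds the SREBP precursor in place and is itself a target of SREBPs, had 143.9, 131.2 and 139.1 CPM in shCK5-22 libraries, against 190.5, 205.1 and 196 CPM in shControl libraries. INSIG1 fell without overlap (log2 fold change -0.51, SE 0.0365, adjusted p = 6.64e-10), and its relative INSIG2 fell by 0.23. SREBF2, the paralog that directs cholesterol synthesis, averaged 177 ± 7.34 CPM in shCK5-22 and 203 ± 2.58 CPM in shControl cells and fell by 0.20 (adjusted p = 4.41e-05). SCAP, the escort of SREBPs, averaged 90.5 CPM in shCK5-22 and 91.6 CPM in shControl cells, a difference short of the threshold (adjusted p = 0.743). NR1H3, which encodes the oxysterol receptor LXR-alpha, averaged 3.34 CPM in shCK5-22 and 3.74 CPM in shControl cells (adjusted p = 0.371). MLXIPL, which encodes the glucose-responsive factor ChREBP, had 2 to 8 counts in shCK5-22 and 8 to 20 in shControl libraries. Its fall (adjusted p = 0.0211) did not pass the test with 4 of the 6 libraries left out in turn, shCK5-22 replicates 1 and 3 and shControl replicates 2 and 3, with adjusted p of 0.0834 to 0.0982.

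A list of 12 genes held suppliers of acetyl-CoA and NADPH together with ACACB and the mitochondrial fatty acid synthesis genes MCAT, OXSM and MECR, which supply neither. Of these 5 (41.7%) were lower and 3 (25%) higher, against 16.8% and 17.4% of all genes tested, with a median log2 fold change of -0.024. The 3 were citrate synthase CS, the mitochondrial acetyl-CoA synthetase ACSS1, which averaged under 1 CPM, and MCAT, the last with an adjusted p of 0.0453. IDH1, the cytosolic isocitrate dehydrogenase that yields NADPH, had 77.06, 71.63 and 71.19 CPM in shCK5-22 libraries, against 115, 121.3 and 109 CPM in shControl libraries. It fell without overlap, by 0.65 on the log2 scale (adjusted p = 1.79e-10). ACACB, the paralog of ACACA that is tied to mitochondria, stood at 8.09 ± 0.56 CPM in shCK5-22 and 8.09 ± 0.791 CPM in shControl cells and did not pass the test.

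Of the desaturase paralogs, FADS3 rose and SCD5 fell. FADS3, a neighbour of FADS1 and FADS2 on chromosome 11, had 23.98, 24.42 and 24.03 CPM in shCK5-22 libraries, against 18.23, 17.23 and 17.51 CPM in shControl libraries. It rose without overlap, by a log2 fold change of 0.45 (SE 0.0572, adjusted p = 2.24e-06). SCD5, the other human stearoyl-CoA desaturase, averaged 82 ± 1.59 CPM in shCK5-22 and 89.8 ± 1.73 CPM in shControl cells and fell by 0.13 (adjusted p = 0.00524). Among all 13 other elongation and desaturation genes tested 2 (15.4%) fell, near the 16.8% of all genes tested, and 4 (30.8%) rose, against 17.4%, the second largest rise being that of CYB5A, the cytochrome that passes electrons to desaturases, at 0.28. HSD17B12, the reductase of the elongation cycle, and the elongase ELOVL4 were listed at 0, and all exon bases of HSD17B12 lie inside spans of other annotated genes.

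Downstream of synthesis, 11 of 19 genes of fatty acid activation and glycerolipid assembly (57.9%) were higher, against 17.4% of all genes tested, with a median log2 fold change of 0.16. A rise of more than 1.2-fold passed its own test for 3 of the 19, against 3.81% of all genes. A fall of that size passed for 2, against 5.31%. The 3 that were lower (15.8%) were near the 16.8% of all genes. PLIN2, a coat protein of lipid droplets, had 80.82, 92.09 and 84.34 CPM in shCK5-22 libraries, against 55.43, 57.93 and 57.97 CPM in shControl libraries, a rise of 0.59 on the log2 scale (adjusted p = 1.87e-09). AGPAT4, an acyltransferase of phospholipid synthesis, rose by 0.69 (adjusted p = 4.59e-07), at 13.8 ± 0.412 CPM in shCK5-22 and 8.55 ± 0.597 CPM in shControl cells. ACSL1, an acyl-CoA synthetase, ACSL3, another, and LPIN1, a phosphatidate phosphatase, were the 3 that were lower, with falls of 0.55, 0.21 and 0.36. Their relatives ACSL4, ACSL5 and LPIN2 rose, by 0.31, 0.28 and 0.42, and LPIN3 did not pass the test. ACSL4 averaged 370 CPM in shCK5-22 and 298 CPM in shControl cells.

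Of 18 oxidation genes tested 7 (38.9%) fell and 1 (5.56%) rose, against 16.8% and 17.4% of all genes tested, with a median log2 fold change of -0.071. The largest fall at 1 CPM or more was that of ACADVL, the very long-chain acyl-CoA dehydrogenase, which averaged 133 ± 3.24 CPM in shCK5-22 and 201 ± 5.17 CPM in shControl cells, a fall of 0.59 (adjusted p = 5.07e-12). CPT2, the inner carnitine palmitoyltransferase, fell by 0.46 (adjusted p = 0.00435). The 1 that rose was HADHB, a subunit of the trifunctional protein, by 0.10 (adjusted p = 0.0448), a call lost when any library but shControl replicate 1 was left out. The count of 7 lower was 4 without shCK5-22 replicate 2. Of 8 uptake and binding genes tested 1 fell and 1 rose, 12.5% in each direction and below the 16.8% and 17.4% of all genes. These were the transporter SLC27A1, which fell by 0.56, and the binding protein FABP5, which rose by 0.64 (adjusted p = 0.013). The FABP5 call was lost without shControl replicate 2 and without shControl replicate 3, with adjusted p of 0.0551 and 0.0843.

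Genes of cholesterol synthesis, the neighbouring branch under SREBP control, were lower in 18 of 19 cases (94.7%), against 16.8% of all genes tested, and higher in 0, with a median log2 fold change of -0.33, set beside -0.49 for fatty acid synthesis and desaturation. TM7SF2, a sterol reductase, fell by 1.07 and SC5D, a sterol desaturase, by 0.65. The difference between the medians was not tested. CYP51A1, a demethylase of the branch, had at most 1 count per library and 99.8% of its exon bases inside another gene's span.

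**Figure D5:**
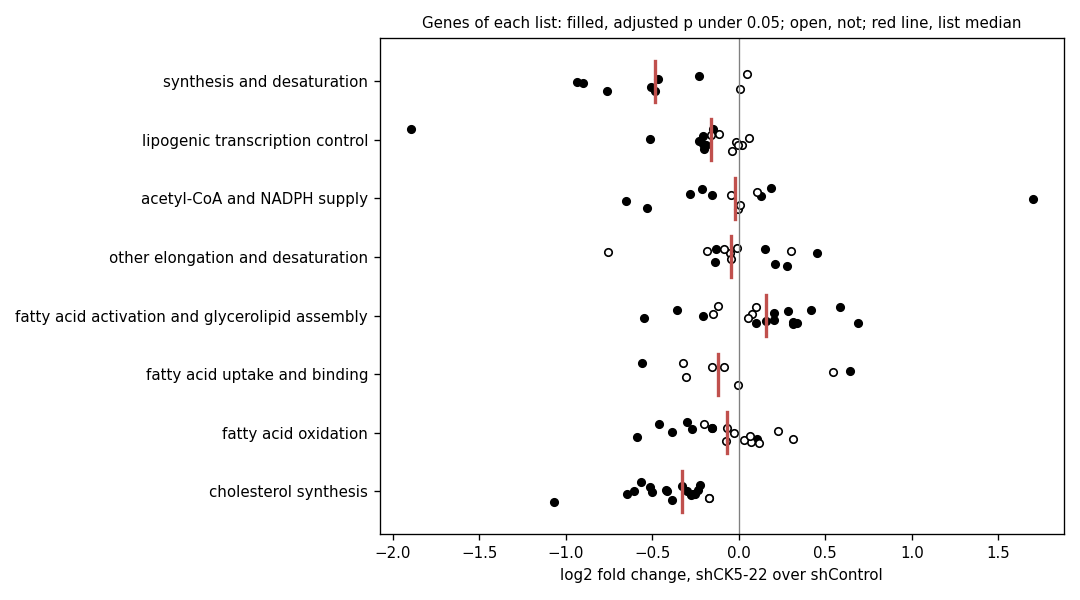
Log2 fold change of shCK5-22 over shControl (horizontal axis) of each tested gene, by list (rows), filled where adjusted p was under 0.05 and open where not, with the list median in red. The medians run from -0.49 for synthesis and desaturation and -0.33 for cholesterol synthesis to 0.16 for activation and glycerolipid assembly.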

How the data were processed

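The authors deposited 1 table of whole-number read counts per gene symbol and library, not normalized. Per the submitters' processing notes, cutadapt, STAR, SAMtools and Cufflinks were used with genome build GRCh38; the sources used here do not state the counting tool, its annotation or its use of strand. Of 56505 rows, 27 held a date in place of a symbol (0.167% to 0.175% of a library) and were left out. Even numbers made up 88.3% of counts from 1 to 20, so a low count may stand for fewer sequenced fragments than its value. The cause was not tested. Apart from that, reads without molecular identifiers are not independent molecules. A count of 3, the floor, was 0.046 to 0.0624 CPM, for counting error only. The groups were compared with edgeR 4.0.16 (R 4.3.3; quasi-likelihood, robust, TMM, filterByExpr, glmTreat for 1.2-fold), two-sided, Benjamini-Hochberg over all 18008 genes, threshold 0.05. The SE is the log2 fold change divided by the square root of F. The fit was tested on simulated data. Coordinates and lengths are GENCODE 29. Genes and lists were chosen with earlier results of these data known. Named genes are the 10, KRT5, a fixed set of regulators and paralogs, in each list the 2 called genes with the largest change at 1 CPM or more, and the 5 nearest profiles, of which 2 genes in all are not reported here; FEN1, HSD17B12, CYP51A1, HADHB, ACSL3, LPIN1, ACSL1, ELOVL4, CS, ACSS1 and MCAT were added after their values were seen. Alternatives were other normalizations and filters, DESeq2 1.42.0, limma-voom (limma 3.58.1), a threshold of 0.01, the replicate number as a block, and each library left out.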

Additional observations from a re-analysis of the deposited data

How the results depend on the processing

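The 7 falls held under all 15 alternatives, and 7 lower and 0 higher was the count in each; of 448 recomputed fold changes of named genes 431 kept their call and direction. The replicate number as a block gave 3287 genes lower and 3456 higher, against 3019 and 3134 in the main fit. It changed no call among the 10 genes. Deviations of same-numbered libraries from their group means correlated at 0.0164, 0.0517 and -0.0068, and those of other pairs at -0.0547 to 0.0377. No label pairs the libraries, and these values cannot decide whether the numbers do. The oxidation count of 1 higher was 0 with library size only, no filter, at least 1 CPM in 3 libraries, DESeq2 and the 0.01 threshold. That threshold also gave 4 lower in oxidation, 7 higher in activation and glycerolipid assembly and 0 higher in uptake. Leaving out a library, oxidation ran from 4 to 7 lower and 0 to 1 higher, uptake from 0 to 1 higher, and the log2 FASN/ACACA difference from -0.069 to 0.0133. Values near 0 changed sign: ELOVL5 was -0.0083 with library size only, -0.0029 with at least 1 CPM in 3 libraries and -0.00079 to 0.0101 with a library left out; ACACB was 0.000101 with upper quartile normalization, 0.0016 with the block and -0.0832 to 0.0494 with a library left out; SCAP was -0.0341 to 0.0057 with a library left out. The cause was not tested. Over the longest transcript, shControl levels per kilobase were 32.2 for SREBF1, 14.3 for ACACA, 108 for ACLY, 31.0 for ACSS2, 127.5 for FASN, 19.4 for FADS2, 63.2 for ELOVL5 and 12.1 for ELOVL6, by the shorter length. MLXIPL had 2 to 20 counts per library and no adjusted p from DESeq2, and FADS1 gave no value.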
